A study of Homo sapiens with 6 samples.

Results

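The collagen genes are the family whose products are triple helices of 3 polypeptide chains, each chain with its own gene. They were taken here as every protein-coding gene of the deposited count table with a symbol of the form COL, a number, A and a number. This gave 44 genes of 58735 in the table, 19951 of them protein-coding. By the type of assembly, 11 are fibrillar, 8 belong to basement membranes and 25 are of other kinds. The RNA came from Ovcar8 cells, a human line derived from a high-grade serous carcinoma of the ovary. One group of 3 libraries was made from cells grown for 48 h in RPMI-1640 to which 5% fetal bovine serum (FBS) had been added. The other 3 libraries came from the same line after 48 h without FBS. No genotype difference is given between the groups. Whether libraries of a group were separate cultures is not stated, so each p-value measures the spread between these libraries.

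Collagen chains are made in the endoplasmic reticulum, where prolines and lysines are hydroxylated, and a chain that finds no partners is usually retained or degraded. Fibrillar collagens form the tensile fibres of connective tissue, with type I made mainly by fibroblasts and bone cells. Type IV collagen builds the sheet-like network under epithelia, type VI forms beaded filaments around cells, and the FACIT collagens (fibril-associated collagens with interrupted triple helices) sit on the surface of fibrils. In the ovary, the surface epithelium and the fallopian tube epithelium rest on a basement membrane, and collagen-rich stroma is a known feature of ovarian carcinoma.

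The libraries held 16379416 to 19558484 counts assigned to genes. Log2 CPM (counts scaled to a common library size) correlated at 0.904 to 0.975 within groups and at 0.911 to 0.973 between groups (Pearson, across genes, which are not independent replicates). Of 11 epithelial and Mullerian markers, 5 reached at least 1 FPKM (fragments scaled to library size and gene length) in every library: KRT8, KRT18, KRT7, PAX8 and CLDN3. The sum of the list, nearly all of it KRT8, KRT18 and KRT7, ran from 1334 to 2414 FPKM with FBS and from 1724 to 2390 without serum. EPCAM ran from 0.396 to 1.51 FPKM over the libraries. In every library WT1 (0.178 to 0.636 FPKM), CLDN4 (0.0566 to 0.412 FPKM) and CDH1 (0.0518 to 0.118 FPKM) were under 1 FPKM. KRT19 had at most 4 counts in a library, and MUC16 was at 0 counts throughout. Of 10 fibroblast markers, COL1A1 alone reached 1 FPKM in every library. DCN, FAP, POSTN and COL1A2 had no count in any library, and the sum of the list, nearly all of it COL1A1, ran from 31.7 to 58.2 FPKM with FBS and from 78.2 to 83.8 without serum. FBN1, a fibroblast marker that encodes the microfibril protein fibrillin, was at 0.426, 0.614 and 0.618 FPKM with FBS and 1.36, 1.34 and 2.63 FPKM without serum, apart between the groups (log2 fold change 1.69, SE 0.36, adjusted p = 0.0601, edgeR). No leukocyte or endothelial marker reached 1 FPKM in every library. The endothelial list summed to 0.0759 to 0.0924 FPKM with FBS and 0.167 to 0.482 without serum, and within it VWF had 6, 8 and 4 counts against 62, 24 and 60, also apart (log2 fold change 2.94, SE 0.73, adjusted p = 0.134). Other markers of these 2 lists were near the floor and went both ways. Summed counts with FBS and without serum were 13 and 10 for THY1, 5 and 2 for LUM and 5 and 0 for CDH5. They were 2 and 2 for PDGFRA, 9 and 32 for KDR and 5 and 16 for PECAM1. FBN1 and VWF lay higher without serum, as most tested collagen genes did, and their part in the collagen values was not tested.

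Few of the 44 genes carried most of the collagen RNA. Genes were compared in FPKM, a level per gene length. Length here is the one deposited with each gene, which for a collagen gene is shorter than its span on the chromosome. By FPKM, 8 members were at 1 or more in every library, and 20 passed the filter on low counts and were tested. COL1A1, the main chain of type I collagen, and COL6A2 and COL6A1, both chains of type VI collagen, were the 3 highest by mean FPKM. In serum-starved replicate 3, COL4A2 (15.9 FPKM) was above COL6A1 (11.9 FPKM). The 3 highest genes of each library made up 76.0% to 80.7% of its summed collagen FPKM. COL1A1, COL6A1, COL6A2 and the type IV chains COL4A1 and COL4A2 together made up 86.5% to 89.9%. The order of COL6A1 and COL4A2 rests on the deposited lengths, 5343 and 19293 bases. In CPM, COL4A2 was above COL6A1, with means of 231 against 91.3 with FBS and 301 against 98.2 without serum. The share of all counts that fell on collagen genes was 0.114%, 0.138% and 0.126% in FBS replicates 1, 2 and 3, and 0.160%, 0.176% and 0.192% in the same order without serum.

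In summed FPKM the 44 genes reached 120, 162 and 149 with FBS and 215, 198 and 168 without serum. Every library without serum lay above every library with FBS, by a small margin between serum-starved replicate 3 and FBS replicate 2. These sums, the class sums and the shares of all counts were not corrected for the trends with GC content and length described below. Whether the groups would stay apart with such a correction was not tested. The fibrillar class, almost wholly COL1A1, gave 32.2, 58.3 and 58.4 FPKM with FBS and 80.2, 83.4 and 76.5 without serum, and these values did not overlap. Basement membrane genes gave 16.0, 22.8 and 21.3 with FBS and 25.7, 22.3 and 26.2 without serum, and the remaining class gave 71.3, 81.4 and 69.2 against 109, 91.9 and 65.5. The last 2 classes overlapped between the groups. In bulk RNA, fewer cells of a type and less RNA per cell cannot be told apart, which holds for every difference given here.

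**Figure D1:**
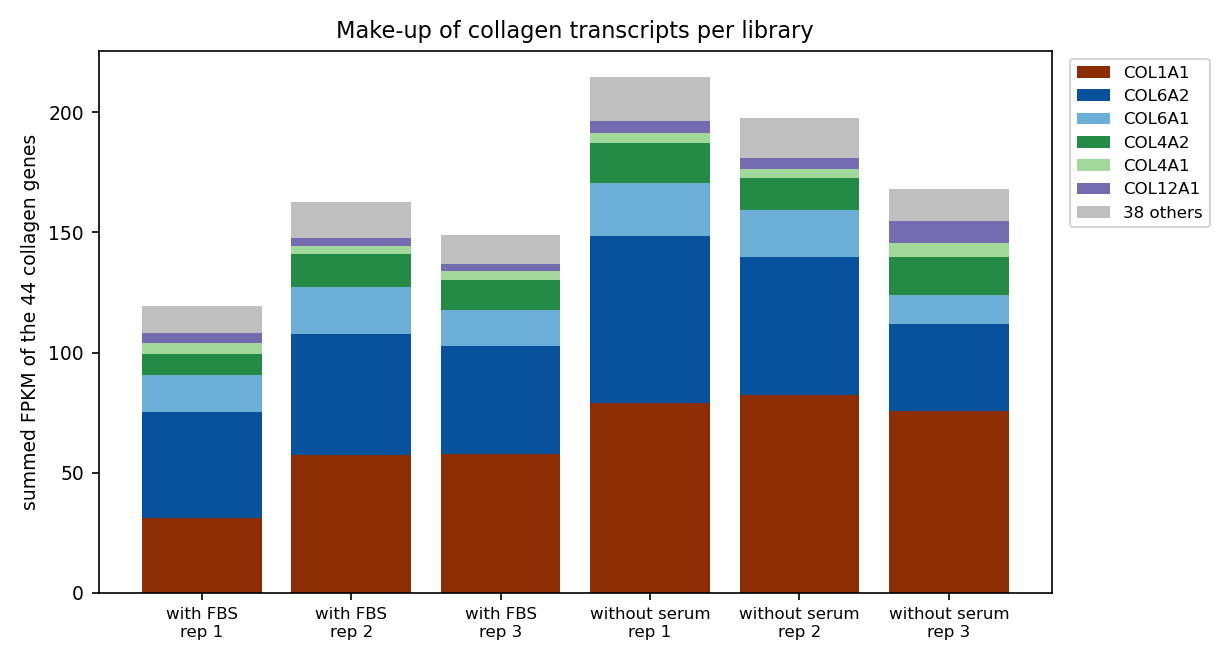
Stacked bars of summed FPKM of the 44 collagen genes in each of the 6 libraries (vertical axis, FPKM), split into the 6 highest genes and the 38 others. COL1A1 and COL6A2 are the 2 tallest segments in every library, and the total runs from 120 FPKM in FBS replicate 1 to 215 FPKM in serum-starved replicate 1.

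At the other end, 10 members had no count in any library: COL1A2, COL11A1 and COL24A1 among the fibrillar genes, and COL6A5, COL9A1, COL10A1, COL14A1, COL19A1, COL20A1 and COL21A1 among the other kinds. A count of 0 allows up to 3 counts per library, which was 0.132 to 0.204 CPM, so a level under that was not detectable at this depth. This floor covers counting error only. A further 14 members had counts but did not pass the filter. They included the fibrillar genes COL2A1, COL3A1, COL5A1, COL5A2 and COL5A3, the basement membrane genes COL4A3, COL4A6 and COL15A1, and COL6A3, COL6A6, COL22A1, COL23A1, COL25A1 and COL28A1.

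Promoter sequences of RefSeq (GRCh38.p14) were read beside these levels. The promoter table held 32 of the 44 members, and the 250 bases before each start were searched. The start used was the one nearest to the deposited 5′ end of the gene. It lay 43157 bases from that end for COL6A6, 1472 for COL4A2 and 728 for COL15A1. The stretches of COL4A1 and COL4A2, of COL4A4 and COL4A3, and of COL4A6 and COL4A5 overlap, as 126 to 418 bases lie between their starts. The 16 tested members with an entry had a median of 21.5 CpG dinucleotides, the 16 members not tested had 10.5, and all 35116 promoters of the table had 11. These medians describe the sets and were not tested. The range was wide in both sets, from 1 to 40 among the tested and from 1 to 38 among the others. Searched on both strands, the motif CCAAT was in 4 of the 16 tested and 5 of the 16 not tested promoters, GGGCGG in 11 and 7, and TATAAA in 4 and 2. Of all promoters of the same length, 32% held CCAAT, 42.6% held GGGCGG and 10.7% held TATAAA. A match describes the letters and is not evidence of a bound factor.

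Shown here are the 250 bases before the start of the 2 members with the smallest p-values (COL12A1 and COL7A1), a highly expressed type VI chain (COL6A2), a type IV chain of low level (COL4A5) and a type IX chain with no counts (COL9A1), 5′ to 3′ on the strand of the gene. Capitals mark each match to one of the 3 motifs on either strand. The COL12A1 stretch is chr6:75206054-75206303 on the minus strand and holds 21 CpG. The COL7A1 stretch is chr3:48595330-48595579 on the minus strand and holds 11. The COL6A2 stretch is chr21:46097862-46098111 on the plus strand and holds 28, the COL4A5 stretch is chrX:108439588-108439837 on the plus strand and holds 8, and the COL9A1 stretch is chr6:70303085-70303334 on the minus strand and holds 2.
COL12A1: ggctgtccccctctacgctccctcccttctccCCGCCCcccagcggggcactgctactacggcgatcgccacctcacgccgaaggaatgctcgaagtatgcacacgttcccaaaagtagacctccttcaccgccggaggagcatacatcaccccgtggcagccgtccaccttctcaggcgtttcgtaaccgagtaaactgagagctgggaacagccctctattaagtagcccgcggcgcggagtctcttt
COL7A1: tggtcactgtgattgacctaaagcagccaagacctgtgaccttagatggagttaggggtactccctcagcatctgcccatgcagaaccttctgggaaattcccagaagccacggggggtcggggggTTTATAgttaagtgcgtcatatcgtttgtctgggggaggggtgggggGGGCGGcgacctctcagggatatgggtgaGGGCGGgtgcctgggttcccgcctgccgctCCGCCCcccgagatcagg
COL6A2: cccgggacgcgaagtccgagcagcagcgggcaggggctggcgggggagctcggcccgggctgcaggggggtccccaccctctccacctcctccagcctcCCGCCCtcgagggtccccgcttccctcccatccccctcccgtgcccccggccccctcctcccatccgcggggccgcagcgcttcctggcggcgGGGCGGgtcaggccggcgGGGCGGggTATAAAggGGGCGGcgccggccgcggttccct
COL4A5: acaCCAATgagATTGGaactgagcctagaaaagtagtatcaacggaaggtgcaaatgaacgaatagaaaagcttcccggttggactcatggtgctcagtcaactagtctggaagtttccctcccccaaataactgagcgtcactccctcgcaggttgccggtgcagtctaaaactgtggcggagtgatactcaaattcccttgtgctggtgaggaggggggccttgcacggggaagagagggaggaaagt
COL9A1: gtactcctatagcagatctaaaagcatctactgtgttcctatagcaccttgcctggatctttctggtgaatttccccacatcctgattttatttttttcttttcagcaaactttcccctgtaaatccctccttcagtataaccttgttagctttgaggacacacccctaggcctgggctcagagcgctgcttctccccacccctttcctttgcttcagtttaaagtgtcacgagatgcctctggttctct
COL6A2 had 4 GGGCGG matches and a TATAAA match, COL7A1 had 3 GGGCGG matches and a TATAAA match, COL12A1 had a single GGGCGG match, and COL4A5 had 2 CCAAT matches. COL9A1 had none of the 3 motifs.

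The comparison of the groups, which asked what differs after serum withdrawal, called no collagen gene. In edgeR's quasi-likelihood test over 13772 genes, with Benjamini-Hochberg adjustment, 0 of the 20 collagen genes tested had an adjusted p under 0.05 in either direction, beside 0.24% of all genes called higher and 0.0436% called lower without serum. The smallest adjusted p of a collagen gene was 0.346. On simulated data this test found 5 of 100 genes given a 2-fold change, so 0 calls do not show that levels were alike. At an unadjusted p under 0.05 stood 3 members, all higher without serum (COL12A1, COL7A1 and COL1A1), where 6.01% of all genes were higher and 4.37% lower by that rule (10.4% in either direction). DESeq2 and limma-voom also gave 0 calls, with the same 3 genes under an unadjusted p of 0.05. DESeq2 gave no adjusted p for COL4A4, COL8A1, COL8A2, COL11A2, COL16A1, COL17A1 and COL26A1, so these could not be called there. Among the 20 tested members the groups did not overlap for 4, all higher without serum, where 10% of all genes were higher without overlap and 7.65% lower (17.7% in either direction).

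The log2 fold change was above 0 in 16 of the 20 tested members and below 0 in 4, against 48.5% above 0 among all genes tested. Its median was 0.33, beside -0.021 over all genes. By class the medians were 0.37 for the 3 fibrillar, 0.28 for the 5 basement membrane and 0.33 for the 12 other genes tested. The tested collagen genes were long and GC-rich: their median length was 8897 bases and their median transcript GC content 61.6%, against 4799 bases (17 of the 20 were above it) and 50.7% over all genes tested.

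Library values moved with GC content and length. In FBS replicate 1 the genes of the lowest GC decile had a median log2 deviation of 0.79 and those of the highest one -0.27. The same 2 values were -0.70 and 0.48 in serum-starved replicate 1, and 0.29 and -0.47 in serum-starved replicate 3. With a correction for GC content and length in each library, 9 collagen genes were above 0 and 11 below, and the median was -0.012, beside 0.012 over all genes. The split by direction and the median therefore rest on that choice of scaling. COL12A1 and COL7A1 kept an unadjusted p under 0.05 with the correction, COL1A1 did not, and COL13A1, lower without serum, had one, with no collagen gene called. In that corrected test 16% of all genes were under the same threshold, so 3 of 20 members was near the share over all genes.

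**Figure D2:**
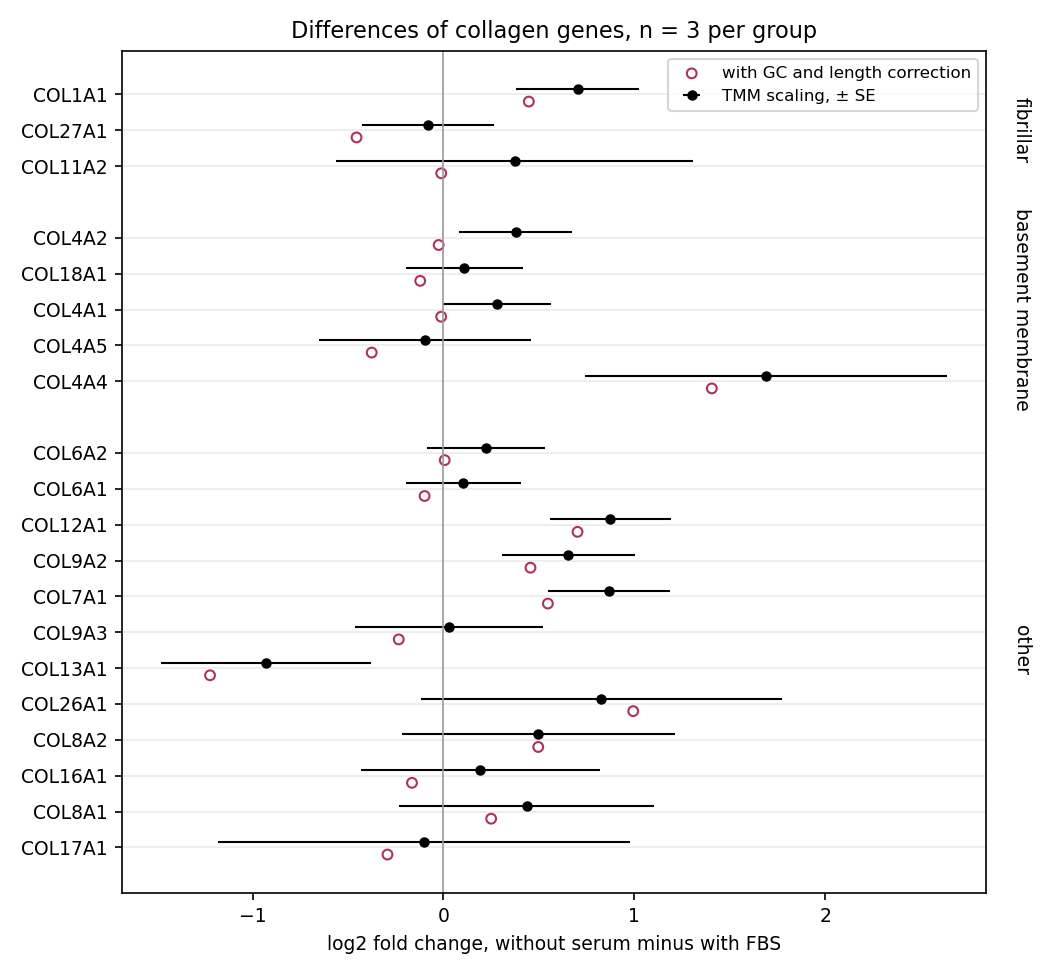
Log2 fold change (horizontal axis, without serum minus with FBS) of the 20 tested collagen genes by class, with the SE from edgeR as bars on the filled points (n = 3 per group) and the value after GC and length correction as open circles. In all but COL26A1 and COL8A2 the open circle lies visibly to the left of the filled point, and the median goes from 0.33 to -0.012.

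Among the fibrillar genes, COL1A1 had the highest mean FPKM of all collagen genes, although in FBS replicate 1 COL6A2 was higher (44.1 against 31.2 FPKM). It lies on chromosome 17 (chr17:50183289-50201632, minus strand, GRCh38) and stood at 318, 571 and 577 CPM with FBS and at 793, 831 and 762 CPM without serum. FBS replicate 1 was the lowest, all 3 libraries without serum were above all 3 with FBS, and the means were 489 ± 148 and 796 ± 34.5 CPM (SD, n = 3). This was 1.63-fold, a log2 fold change of 0.70 (SE 0.32), with an unadjusted p of 0.0427 and an adjusted p of 0.457 in edgeR. The log2 fold change was 0.47 without FBS replicate 1 and 0.45 with the GC and length correction. By FPKM, COL1A1 ranked 1373, 895 and 876 among protein-coding genes with FBS and 705, 569 and 420 without serum, counting from the highest, and it made up 26.1% to 44.9% of the summed collagen FPKM.

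COL1A2, which encodes the partner chain of the usual type I heterotrimer, had no count in any library. Per gene length, COL1A1 was at least 2371-fold to at least 6558-fold above COL1A2 in single libraries, with 3 counts per library set as the floor for COL1A2. Type III collagen, which joins type I in many fibrils, was as scarce: COL3A1 had 1 count in FBS replicate 1 and none elsewhere. Type V collagen, which nucleates type I fibrils, was close to the floor too, with 8 counts of COL5A1, 24 of COL5A2 and 40 of COL5A3 over the 6 libraries.

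COL5A3 had 2, 0 and 0 counts with FBS and 11, 3 and 24 without serum, and it did not pass the filter. COL2A1, the chain of cartilage collagen, had 3, 5 and 6 counts with FBS and 0, 2 and 0 without serum. In each gene the nearest libraries of the groups had 2 and 3 counts, which the floor of 3 counts does not separate. COL27A1, a fibrillar chain of cartilage and other tissues, was at 11.7, 13.1 and 10.7 CPM with FBS and 12.2, 12.5 and 8.85 CPM without serum, with overlapping groups and a log2 fold change of -0.081 (adjusted p = 0.959, edgeR). COL11A2 was lower still, at 0.130 to 1.27 CPM over the 6 libraries, with a log2 fold change of 0.37 and an SE of 0.94.

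**Figure D3:**
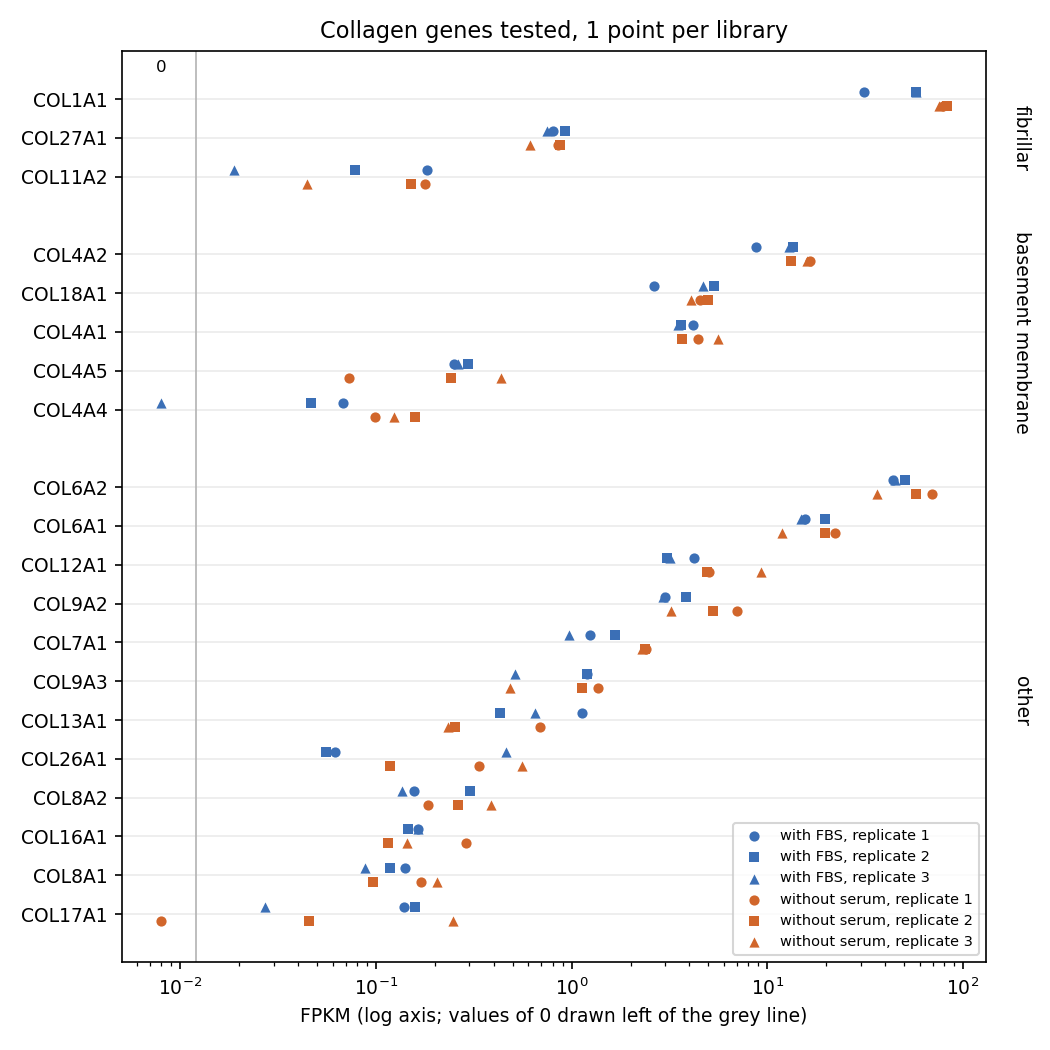
FPKM (log horizontal axis) of the 20 tested collagen genes in each library, by class, with blue for FBS, orange for no serum and a symbol per replicate. COL1A1 and COL6A2 lie furthest right, 8 genes stay at 1 FPKM or more in all 6 libraries, and most genes below 1 FPKM overlap between the groups.

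In the basement membrane class, the main type IV chains were well expressed and the tissue-restricted ones were not. COL4A2 stood at 176, 264 and 253 CPM with FBS and 326, 261 and 315 CPM without serum, and COL4A1 at 63.9, 54.1 and 52.6 CPM against 66.8, 55.8 and 84.9 CPM. The groups overlapped for both. The log2 fold changes were 0.38 (SE 0.30, adjusted p = 0.715) and 0.28 (SE 0.28, adjusted p = 0.785) in edgeR, and with the GC and length correction both were slightly below 0, at -0.025 and -0.012.

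COL4A1 and COL4A2 lie head to head on chromosome 13 (chr13:110148963-110307233, minus strand, and chr13:110305812-110513209, plus strand), an arrangement that all 3 pairs of type IV genes share. The deposited bounds of COL4A1 and COL4A2 overlap by 1422 bases. Whether counting used strand is not given in the sources used here, so reads from the overlap cannot be told apart between them. Between the RefSeq starts of the pairs are 126 bases for COL4A1 and COL4A2, 418 for COL4A4 and COL4A3, and 379 for COL4A6 and COL4A5. Over the 6 libraries the left and right genes of these pairs had 6903 and 28508 counts, 96 and 15 counts, and 17 and 357 counts, so the neighbours of a pair did not reach like totals in any of the 3.

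The known type IV heterotrimer holds more COL4A1 than COL4A2 chains, whereas the RNA ratio went the other way. Per gene length, the ratio of COL4A1 to COL4A2 was 0.475, 0.268 and 0.272 with FBS and 0.268, 0.280 and 0.352 without serum. FBS replicate 1 was highest, the groups overlapped and the log2 ratio differed by -0.13 between the groups (exact permutation p = 0.9, two-sided, 3 libraries against 3, adjusted p = 0.9 over 4 ratios; the smallest p this design allows is 0.1).

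COL4A4, a chain of the kidney glomerular network, was low but apart between the groups, at 0.711, 0.477 and 0 CPM with FBS and 1.02, 1.65 and 1.28 CPM without serum. These are 14, 8 and 0 counts against 15, 30 and 29. The log2 fold change was 1.69 (SE 0.95, adjusted p = 0.558, edgeR) and did not pass, and it ran from 1.14 without FBS replicate 3, the library at 0, to 2.40 without FBS replicate 1. COL4A3, its neighbour and partner, had 2 counts in FBS replicate 2, 13 in serum-starved replicate 2 and none in the other libraries.

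COL4A5 was at 3.10, 3.57 and 3.18 CPM with FBS and 0.884, 2.96 and 5.28 CPM without serum, so its libraries without serum lay on both sides of those with FBS, with a log2 fold change of -0.097 (adjusted p = 0.970, edgeR). COL4A6 had at most 8 counts in a library. COL18A1, the source of the endostatin fragment, was at 23.4, 46.0 and 40.7 CPM with FBS and 39.3, 43.6 and 35.8 CPM without serum, with overlapping groups and a log2 fold change of 0.11 (adjusted p = 0.935). It shares part of its span on the opposite strand with SLC19A1, which had 12097 counts against its 4046, so its counts carry the same doubt about strand. COL15A1, the other basement membrane collagen of that subfamily, had 6 counts, all in FBS replicate 1.

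Type VI collagen was represented by COL6A1 and COL6A2 with hardly any COL6A3, the large chain that completes the usual heterotrimer. COL6A2 was at 247, 277 and 248 CPM with FBS and 382, 317 and 202 CPM without serum, and COL6A1 at 86.4, 106 and 81.1 CPM against 121, 108 and 65.6 CPM. In both genes serum-starved replicate 3 was the lowest of all libraries and serum-starved replicate 1 the highest, so the groups overlapped. The log2 fold changes were 0.22 (SE 0.31, adjusted p = 0.855) and 0.10 (SE 0.30, adjusted p = 0.936) in edgeR, and with the GC and length correction they were 0.0067 and -0.099. The GC contents of the transcripts, 64.9% and 63.5%, were above the median of all genes, and these 2 libraries had opposite GC trends. The part of these trends in the values of COL6A1 and COL6A2 was not tested.

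The 2 chains kept a narrow ratio. Per gene length, COL6A1 over COL6A2 was 0.353, 0.388 and 0.330 with FBS and 0.319, 0.344 and 0.328 without serum, overlapping between the groups (log2 difference -0.11, exact permutation p = 0.2, adjusted p = 0.6 over 4 ratios). The genes are neighbours on chromosome 21 in the same orientation (chr21:45981737-46005050 and chr21:46098097-46132849), with COL18A1 upstream of both. COL6A3 had 2, 9 and 12 counts with FBS and 0, 2 and 20 without serum, 45 in all, unevenly spread over the libraries of both groups. COL6A1 had 1248 to 1974 counts in each library, although COL6A3 has the longer deposited length (19633 against 5343 bases). COL6A5 and COL6A6, the alternative partners, had 0 and 4 counts.

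**Figure D4:**
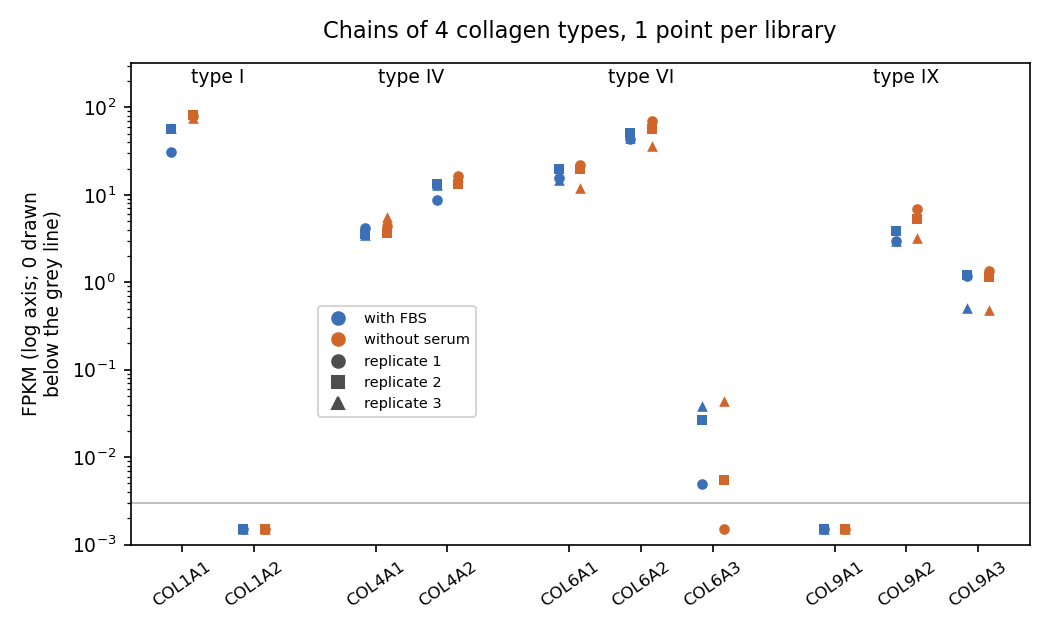
FPKM (log vertical axis) of the chains of collagen types I, IV, VI and IX in each library, with blue for FBS, orange for no serum, a symbol per replicate and values of 0 drawn below the grey line. COL1A2 and COL9A1 are at 0 in all 6 libraries and COL6A3 lies far below COL6A1 and COL6A2, whereas COL4A1 and COL4A2 are within a few-fold of each other.

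Of the FACIT collagens, COL12A1 had the smallest p-value of all collagen genes. Its product binds type I fibrils, and the gene lies at chr6:75084326-75206051 on the minus strand. It was at 55.0, 38.7 and 40.4 CPM with FBS and 63.9, 63.3 and 118 CPM without serum, with serum-starved replicate 3 far above the rest and no overlap between the groups. The means were 44.7 ± 8.95 and 81.9 ± 31.7 CPM (SD, n = 3), 1.83-fold, with a log2 fold change of 0.87 (SE 0.32, unadjusted p = 0.0130, adjusted p = 0.346, edgeR). Without serum-starved replicate 3 the log2 fold change was 0.51, and with the GC and length correction 0.70. The deposited length of the gene, 12481 bases, is long. From the shortest to the longest decile of genes by this length, serum-starved replicate 3 went from -0.53 to 0.47 in median log2 deviation. The part of this trend in the COL12A1 value of that library was not tested.

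Type IX collagen, a cartilage FACIT, also lacked a chain. COL9A2 was at 13.2, 16.5 and 12.6 CPM with FBS and 30.0, 22.8 and 13.9 CPM without serum, and COL9A3 at 6.0, 5.90 and 2.53 CPM against 6.73, 5.65 and 2.42 CPM, while COL9A1 had no count. Serum-starved replicate 3 was within the range of the FBS libraries for COL9A2. Its log2 fold change was 0.66 (SE 0.35, adjusted p = 0.536, edgeR), and that of COL9A3 was 0.028. Per gene length the ratio of COL9A2 to COL9A3 ran from 2.52 to 6.60 over the libraries and did not separate the groups (exact permutation p = 0.3, adjusted p = 0.6). COL9A3 shares part of its span with TCFL5 on the opposite strand, which had 1930 counts against 513. COL16A1 was at 1.10 to 2.72 CPM with a log2 fold change of 0.19, and COL22A1 had 4 and 12 counts in serum-starved replicates 2 and 3 and none in the other libraries.

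COL7A1, whose product forms the anchoring fibrils that tie a basement membrane to the tissue below, had closely similar values in the 3 libraries without serum. It was at 14.3, 18.6 and 10.9 CPM with FBS and at 27.2, 26.9 and 26.1 CPM without serum, with no overlap. The means of 14.6 ± 3.87 and 26.7 ± 0.565 CPM (SD, n = 3) gave 1.83-fold and a log2 fold change of 0.87 (SE 0.32, unadjusted p = 0.0142, adjusted p = 0.350, edgeR). The log2 fold change ran from 0.71 to 1.09 when single libraries were left out and was 0.55 with the GC and length correction. The gene, at chr3:48564073-48595267 on the minus strand, has a transcript GC content of 63.3%.

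The remaining tested members were low. COL13A1, a transmembrane collagen of cell contacts, was at 6.91, 2.56 and 3.90 CPM with FBS and 4.15, 1.54 and 1.41 CPM without serum, a log2 fold change of -0.93 (SE 0.55, adjusted p = 0.583, edgeR) with overlapping groups. With the GC and length correction it was -1.22 (adjusted p = 0.251), and without correction it ran from -0.47 without FBS replicate 1 to -1.58 without serum-starved replicate 1. COL17A1, the hemidesmosome collagen of basal keratinocytes, was between 0 and 1.81 CPM, and its log2 fold change of -0.10 had an SE of 1.08. The short-chain collagens COL8A1 and COL8A2, known from vessel walls and the cornea, were at 0.845 to 1.98 and 0.650 to 1.85 CPM, with log2 fold changes of 0.44 and 0.50. Their ratio per gene length ran from 0.367 to 0.916 and did not separate the groups (exact permutation p = 0.8, adjusted p = 0.9 over 4 ratios). COL26A1 was between 0.179 and 1.81 CPM, with FBS replicate 3 and serum-starved replicate 3 the highest of their groups and a log2 fold change of 0.83 (SE 0.95). Leaving out FBS replicate 3 gave 2.49, and leaving out serum-starved replicate 3 gave 0.24.

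The enzymes and chaperones that make collagen were mostly expressed. Of 36 such genes 34 were tested and 0 called in edgeR, and 3 were higher and 1 lower without serum at an unadjusted p under 0.05, close to the 6.01% and 4.37% of all genes. DESeq2 and limma-voom called 0 of them. Their median log2 fold change was 0.11. For hydroxylation, P4HA2, a catalytic subunit of prolyl hydroxylase, was at 17.9, 19.7 and 20.5 CPM with FBS and 34.1, 28.0 and 29.1 CPM without serum, higher in all 3 libraries, with a log2 fold change of 0.65 (SE 0.29, adjusted p = 0.454). P4HB, the other subunit, was at 570 ± 89.9 and 723 ± 103 CPM and overlapped (log2 fold change 0.34, adjusted p = 0.749). PLOD3, a lysyl hydroxylase, was at 142, 190 and 189 CPM against 150, 117 and 78.4 CPM, overlapping, with a log2 fold change of -0.59 (adjusted p = 0.530).

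Of the genes for folding and export, SEC23A alone of the 3 named stood apart between the groups. SERPINH1, the collagen chaperone of the endoplasmic reticulum, averaged 495 ± 99.7 CPM in the FBS libraries and 485 ± 110 CPM in the starved ones (SD, n = 3; log2 fold change -0.029, adjusted p = 0.984, edgeR). PPIB, a prolyl isomerase, was at 160 ± 10.1 and 131 ± 15.2 CPM (log2 fold change -0.29, adjusted p = 0.777). SEC23A, a coat protein of the vesicles that carry procollagen out of the endoplasmic reticulum, was at 79.0, 61.1 and 80.1 CPM with FBS and 22.7, 37.8 and 53.2 CPM without serum. All 3 starved libraries were below all 3 with FBS, and the log2 fold change of -0.95 (SE 0.32) had an adjusted p of 0.313. Without serum-starved replicate 3 it was -1.28 with an adjusted p of 0.0179. That fit called 124 genes higher and 133 lower, against 33 and 6 with every library kept. With any other single library left out, the adjusted p of SEC23A was 0.372 to 0.997.

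Outside the cell, BMP1 cleaves the C-terminal propeptide of fibrillar procollagens and is also an activator of lysyl oxidase. It was at 33.5, 45.3 and 47.6 CPM with FBS and 93.3, 80.3 and 60.8 CPM without serum, higher in all 3 libraries, with a log2 fold change of 0.89 (SE 0.29, adjusted p = 0.293, edgeR). Without serum-starved replicate 3 it was 1.04 with an adjusted p of 0.0335. With any other single library left out, BMP1 was not called. The crosslinking enzymes LOXL1 and LOX had log2 fold changes of opposite sign. LOXL1 was at 29.7, 87.8 and 61.0 CPM against 116, 128 and 85.4 CPM (log2 fold change 0.89, adjusted p = 0.392), and LOX at 9.81, 3.93 and 4.81 CPM against 2.72, 2.31 and 4.27 CPM (log2 fold change -0.99, adjusted p = 0.490). In both genes 1 starved library lay within the range of the FBS libraries.

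Of 11 collagen receptors 5 were tested and 0 called in edgeR, with 1 higher and 1 lower at an unadjusted p under 0.05, where 6.01% and 4.37% of all genes stood; with 5 genes no share can be read from this. DESeq2 and limma-voom called 0 of these too. DDR1, a receptor tyrosine kinase that binds collagen, was at 42.3, 60.3 and 42.2 CPM with FBS and 87.7, 76.8 and 61.9 CPM without serum, with no overlap (log2 fold change 0.64, SE 0.29, adjusted p = 0.453). ITGB1, the beta chain of all collagen-binding integrins, was at 124, 83.8 and 81.0 CPM against 40.4, 61.0 and 79.3 CPM, lower in all 3 libraries but by a narrow margin in serum-starved replicate 3 (log2 fold change -0.68, SE 0.31, adjusted p = 0.464). MRC2, which takes up cleaved collagen, was at 75.3, 144 and 142 CPM against 158, 171 and 192 CPM, with no overlap (log2 fold change 0.53, adjusted p = 0.582). ITGA1, an integrin alpha chain for collagen IV and I, was low, at 1.09 ± 0.277 and 1.59 ± 0.851 CPM.

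**Figure D5:**
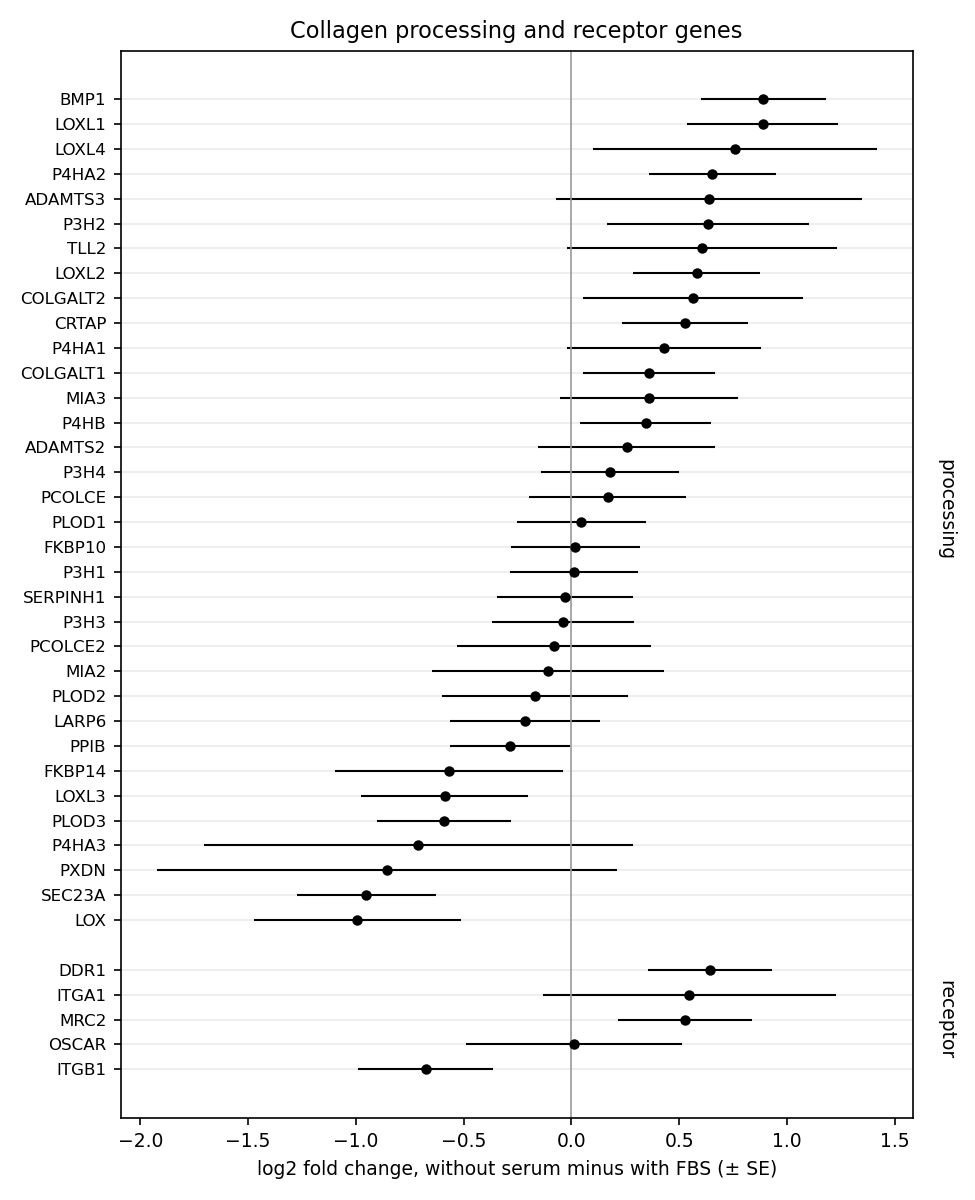
Log2 fold change (horizontal axis, without serum minus with FBS, bars are the SE from edgeR, n = 3 per group) of the 34 tested genes of collagen making and the 5 tested collagen receptors, each list ordered by value. BMP1 is at 0.89 and LOX at -0.99 at the ends of the first list, and the second runs from DDR1 at 0.64 to ITGB1 at -0.68.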

How the data were processed

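Total RNA of the 6 libraries was sequenced on an Illumina NovaSeq after NEBNext library preparation, per the labels' protocols. The submitters' processing notes name STAR 2.6.1, DESeq2 and GRCh38; no counting tool or strand setting is named there. The deposited table holds whole-number raw counts and FPKM values per gene, per the file headers, and its positions matched GENCODE 29. Within 0.1%, for genes above 20 counts, the deposited FPKM values were counts per gene length scaled by DESeq2 size factors. This scales each library by a common factor and leaves its trends with GC content and length in place.

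Groups and replicate numbers came from the treatment and title labels. Counts were filtered with filterByExpr (minimum count 10, minimum total count 15), scaled with TMM and compared with edgeR 4.0.16 (robust glmQLFit, glmQLFTest; R 4.3.3). P-values were adjusted by Benjamini-Hochberg over all genes tested, with a threshold of 0.05. Each SE is the log2 fold change over the square root of F. CPM uses TMM library sizes. The biological coefficient of variation was 36.3%. Chain ratios used FPKM where both chains had at least 10 counts in every library. On simulated data of 13396 genes, this test found 5 of 100 genes given a 2-fold change and 68 of 94 given a 4-fold change, and 3 of its 76 calls were false. Alternatives were other scaling and filters, DESeq2 1.42.0, limma 3.58.1, a replicate block, a GC and length correction (splines with 5 degrees of freedom as offsets) and each library left out.

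The members and lists were chosen with earlier results of these data known. Every collagen gene could be named, with values in every library where the mean was at least 5 CPM, the unadjusted p under 0.05 or the groups apart. Of the processing and receptor lists, the 3 smallest p-values in each direction and the 3 highest mean FPKM were named. COL5A3, COL2A1 and other untested members, and the markers FBN1 and VWF, were described after their values were seen.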

Additional observations from a re-analysis of the deposited data

How the results depend on the processing

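No collagen gene and no collagen receptor was called in any of the 18 alternatives. Not every member could be called in each: DESeq2 gave some low members no adjusted p, and limma on filtered FPKM tested 12 collagen genes. Over all genes, 83 were higher and 44 lower with no low-count filter, 119 and 41 with DESeq2, 87 and 28 with the GC and length correction, and 99 and 46 with the replicate block and that correction together, against 33 and 6 in the test as reported. With limma, 16 were higher on log2(FPKM + 1), 12 on log2(FPKM + 0.1) and 0 on log2(FPKM + 1) with no filter, where 0 were lower. With single libraries left out, 3 to 124 genes were higher and 1 to 133 lower, the lowest without FBS replicate 1 and the highest without serum-starved replicate 3. The median log2 fold change of the collagen genes was -0.012 with the GC and length correction, -0.0017 with the block added, 0.028 on log2(FPKM + 1) with no filter, where 34 members were tested, and 0.22 to 0.41 with single libraries left out. Collagen processing genes called were 0 to 1 higher and 0 to 1 lower with single libraries left out: BMP1 (0.74 to 1.04) and SEC23A (-1.28 to -0.67) were called without serum-starved replicate 3. The sign turned with the GC and length correction, alone and with the replicate block, for COL4A2 (-0.025 and -0.016), COL6A1 (-0.099 and -0.092), COL4A1 (-0.012 and -0.020), COL18A1 (-0.12 and -0.12), COL9A3 (-0.23 and -0.15) and COL16A1 (-0.16 and -0.19), for COL11A2 with the correction alone (-0.011) and for COL9A3 with limma-voom (-0.061). With single libraries left out, the sign turned within the ranges of COL6A1 (-0.059 to 0.32), COL18A1 (-0.14 to 0.32), COL27A1 (-0.17 to 0.061), COL9A3 (-0.27 to 0.36), COL4A5 (-0.76 to 0.35), COL16A1 (-0.27 to 0.43), COL17A1 (-2.14 to 0.48), COL11A2 (-0.091 to 1.32) and SERPINH1 (-0.19 to 0.14). The same held for the log2 difference of the ratios COL4A1/COL4A2 (-0.27 to 0.14) and COL8A1/COL8A2 (-0.46 to 0.20). The cause of these changes was not tested. Depth limits the 24 untested members, where 3 counts or fewer in a library cannot be told from 0. The labels do not say that replicate numbers pair the libraries, so they were not taken to do so. Same-numbered libraries did not deviate together (correlations of -0.26, 0.097 and -0.082). These deviations were not corrected for GC content or length, so they cannot decide on pairing. With the replicate block alone 0 collagen genes were called and their median was 0.33, with COL12A1 and COL7A1 under an unadjusted p of 0.05.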
